A study of Mus musculus with 28 samples.

Results

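The 8 genes described here, Bcl6, Cxcr5, Icos, Il21, Sostdc1, Izumo1r, Cd200 and Il6ra, are markers and effectors of the T follicular helper (Tfh) program, and were followed among the 17097 genes measured on oligonucleotide expression arrays of mouse splenic CD4+ T cells. They were chosen by name, with earlier results of these data known. Each was read from its brightest probe set, ranked by the mean log2 intensity over 26 arrays. All 8 were measured, and no filter on low values removed any of them. The cells came from the spleens of female mice 12 weeks old of 3 strains: C57BL/6, the wild type; B6.Sle1b, which carries the lupus-susceptibility interval Sle1b on the C57BL/6 background; and Sle1b.BACSlamf6-H1, which has in addition a bacterial artificial chromosome for the H1 isoform of Slamf6. In each strain the cells were taken unstimulated, or after 4 h or 24 h on plate-bound anti-CD3 antibody (clone 145-2C11, 0.1 µg/ml) in round-bottomed wells, in complete RPMI medium. No costimulatory antibody is named in the labels. Of the 9 strain-by-time groups, 8 had 3 arrays labelled biological replicates and C57BL/6 at 24 h had 2; 2 further C57BL/6 arrays at 24 h are labelled technical replicates and were kept out of the main tests. The labels do not say whether the replicates came from separate mice, so p-values measure the spread between arrays, which may be technical in part.

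Tfh cells are the CD4+ T cells that enter B cell follicles and help B cells form germinal centres. The repressor Bcl6 sets the program, CXCR5 guides the cell to the follicle, ICOS and the IL-6 receptor bring in the signals that start and sustain Bcl6, and the cell then secretes cytokines, IL-21 among them, that act on B cells. SLAM-family receptors, encoded within the Sle1b interval, and their adaptor SAP steady the contact between T and B cells. The strains therefore allow the question of whether the Sle1b interval, and Slamf6-H1 added to it, go with different levels of these genes. The arrays read all splenic CD4+ T cells, in which Tfh cells are a minority, so for a transcript that only part of the cells make, fewer cells of a type and less RNA per cell cannot be told apart.

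Levels are log2 of the authors' linear array intensities, so 1 unit is a 2-fold difference, and they compare a gene only with itself across arrays. For background, each array's 23 non-specific control probe sets were used: their 95th percentile lay at log2 2.76 to 3.21. The 75th percentile of intensity ran from 34.2 to 53.3 over the arrays and the median from 9.06 to 10.5. The genotype check was Slamf6, which lies in the interval: in unstimulated cells B6.Sle1b exceeded C57BL/6 by log2 1.12 ± 0.17 (SE, adjusted p = 0.00298), while the probe set did not tell Sle1b.BACSlamf6-H1 from B6.Sle1b (0.08 ± 0.17, adjusted p = 0.934). The 8 T cell identity genes measured summed to intensities of 9924 to 11004 in unstimulated cells and 6814 to 7890 after 24 h, and the 2 CD8 genes to 41.7 to 58.6 in unstimulated cells. Adjusted p-values throughout are from limma, fitted over the 9 groups and adjusted by Benjamini-Hochberg over all 17097 genes, and a difference is called where that value is under 0.05.

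Among the strains, the largest difference was in Sostdc1, which was 4.00-fold higher in unstimulated B6.Sle1b than in unstimulated C57BL/6, and 3.27-fold lower in unstimulated Sle1b.BACSlamf6-H1 than in B6.Sle1b. Its levels in unstimulated C57BL/6 and Sle1b.BACSlamf6-H1 were not far above background. Cd200 was 1.58-fold higher in unstimulated B6.Sle1b than in C57BL/6, and Izumo1r 1.58-fold lower in unstimulated Sle1b.BACSlamf6-H1 than in B6.Sle1b. These 2 and 2 of 8 genes stand beside 0.123% and 0.0819% of all genes called in the same comparisons. Since the 8 genes were chosen with earlier results of these data known, such shares and medians describe them and do not test the set. The median difference over the 8 genes was log2 0.42 for unstimulated B6.Sle1b against C57BL/6, where the median over all genes was 0.02, and -0.56 for Sle1b.BACSlamf6-H1 against B6.Sle1b, where it was -0.04; both comparisons use the same B6.Sle1b arrays. For Il21, Sostdc1, Izumo1r and Cd200, all 3 unstimulated B6.Sle1b arrays lay above all 3 of C57BL/6 (4 of 8 genes, beside 3.65% of all genes; 0 of 8 lay below, beside 1.95%) and above all 3 of Sle1b.BACSlamf6-H1 (4 of 8, beside 8.36%), while Il6ra alone lay below the latter (1 of 8, beside 2.81%). After 4 h and 24 h of anti-CD3 none of the 8 genes was called between any 2 strains by limma, with 0.0409% of all genes called between B6.Sle1b and C57BL/6 at either time and 0 between Sle1b.BACSlamf6-H1 and B6.Sle1b. At an unadjusted limma p under 0.05, 617 and 805 of all genes passed at 4 h and 24 h in the first of these comparisons and 613 and 908 in the second. Of the 8 genes, 3 and 1 passed in the first and 3 and 2 in the second.

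**Figure D1:**
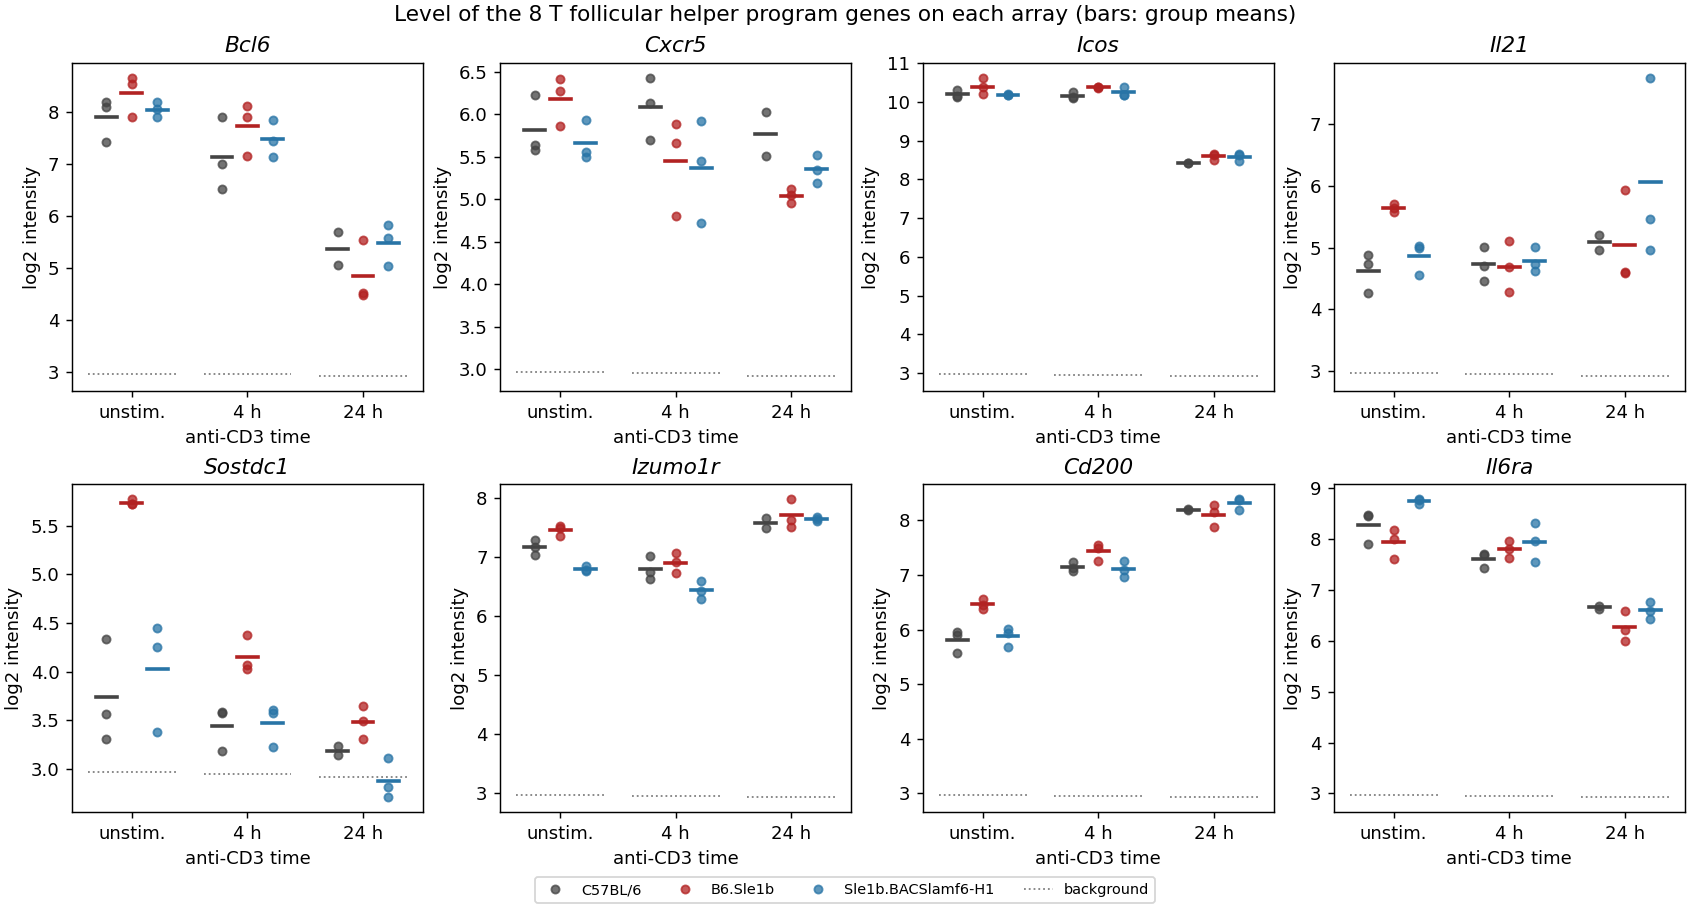
Log2 intensity of each of the 8 genes on every array (y axis) in unstimulated cells and after 4 h and 24 h of anti-CD3 (x axis); points are arrays, bars are group means, colours are strains and the dotted line is background, averaged over the groups at that time. The 3 unstimulated B6.Sle1b arrays sit at 5.72 to 5.77 for Sostdc1, above all others, while Bcl6, Icos and Il6ra are low and Cd200 high at 24 h in every strain.

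The mean over the 3 times gave the same genes less Cd200. Sostdc1 in B6.Sle1b exceeded C57BL/6 by log2 1.0 ± 0.14 (SE, adjusted p = 0.00117) and was lower in Sle1b.BACSlamf6-H1 than in B6.Sle1b, at log2 -1.0 ± 0.14 (adjusted p = 0.00197). Izumo1r was lower in Sle1b.BACSlamf6-H1 than in B6.Sle1b by log2 -0.40 ± 0.07 (adjusted p = 0.0364). Of all genes, 0.333% and 0.0819% were called in these 2 comparisons. Between Sle1b.BACSlamf6-H1 and C57BL/6 limma called 0 of the 8 genes at any time or over the mean, beside 0.0585% of all genes in unstimulated cells, 0.0643% at 4 h, 0.0351% at 24 h and 0.228% over the mean, and with 968, 987, 392 and 1172 of all genes at an unadjusted p under 0.05. In the same order, 2, 2, 0 and 3 of the 8 genes were under that unadjusted value. The mean for Sostdc1 differed between these 2 strains by log2 0.00 with a 95% interval of -0.29 to 0.30, an interval that leaves out the difference seen in B6.Sle1b. It averages 0.29 in unstimulated cells, 0.02 at 4 h and -0.31 at 24 h. At 24 h the Sle1b.BACSlamf6-H1 mean was at background, so equal levels at each time are not shown.

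**Figure D2:**
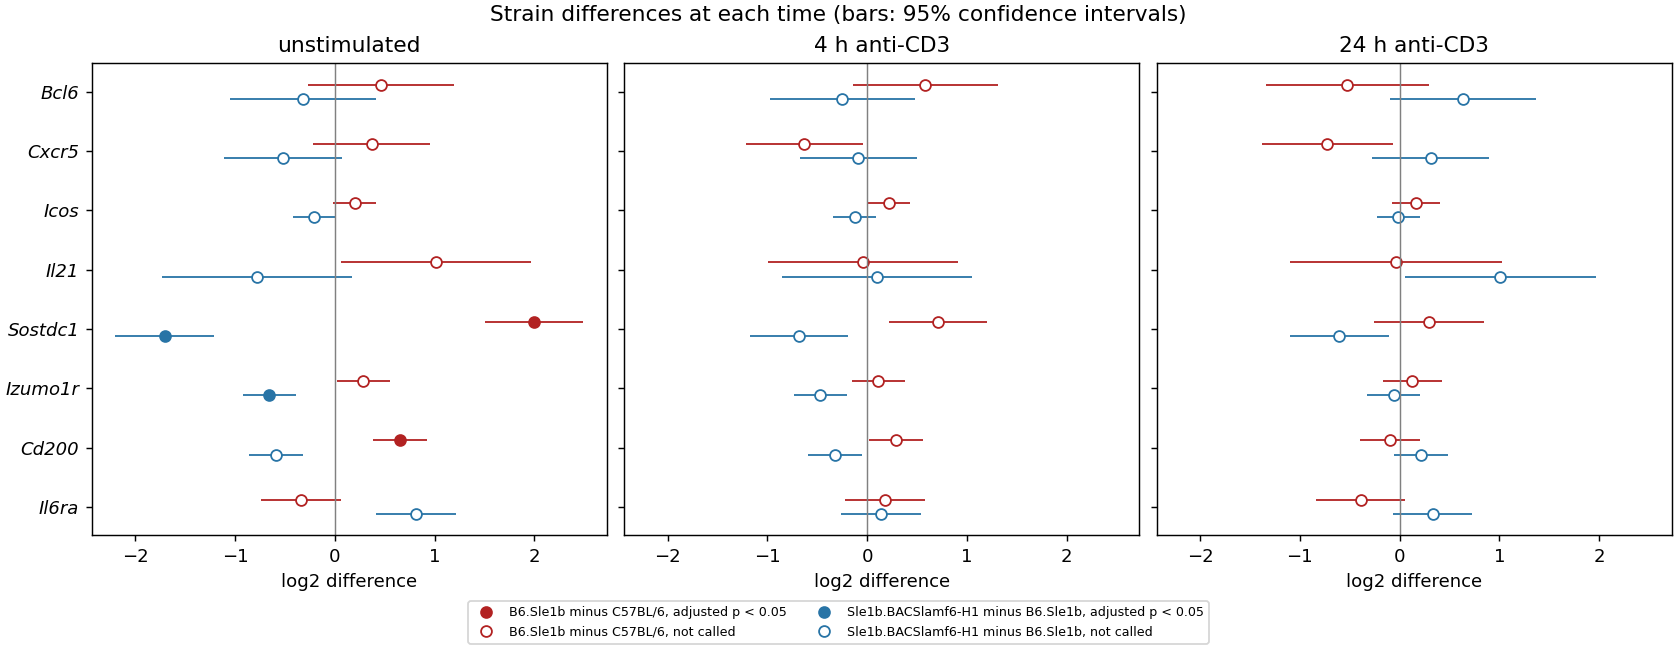
Log2 difference between strains for each gene (x axis, with its 95% interval) in unstimulated cells and at 4 h and 24 h; red is B6.Sle1b minus C57BL/6, blue is Sle1b.BACSlamf6-H1 minus B6.Sle1b, and filled symbols passed the adjusted threshold. Sostdc1 is at 2.00 and -1.71 in unstimulated cells, and every symbol at 4 h and 24 h is open.

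Anti-CD3 moved more of the 8 genes than strain did. At 24 h Bcl6, Icos and Il6ra fell and Cd200 rose in all 3 strains; Sostdc1 fell in 2, Cxcr5 in 1, and Izumo1r rose in 2. At 24 h 5 of 8 genes were called in C57BL/6 (2 higher, 3 lower) beside 24.3% of all genes, 6 in B6.Sle1b (1 higher, 5 lower) beside 28.2%, and 6 in Sle1b.BACSlamf6-H1 (2 higher, 4 lower) beside 29.1%. The median response over the 8 genes was log2 -0.30, -1.41 and -0.73 in that order, where all genes had 0.04, 0.07 and 0.06. At 4 h Cd200 rose in every strain, and the calls were 2 of 8, 3 of 8 and 2 of 8 beside 7.04%, 5.69% and 10.6% of all genes. From 4 h to 24 h 5, 6 and 6 of the 8 were called, beside 18.6%, 24.2% and 24.8% of all genes, and Izumo1r rose in all 3 strains.

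**Figure D3:**
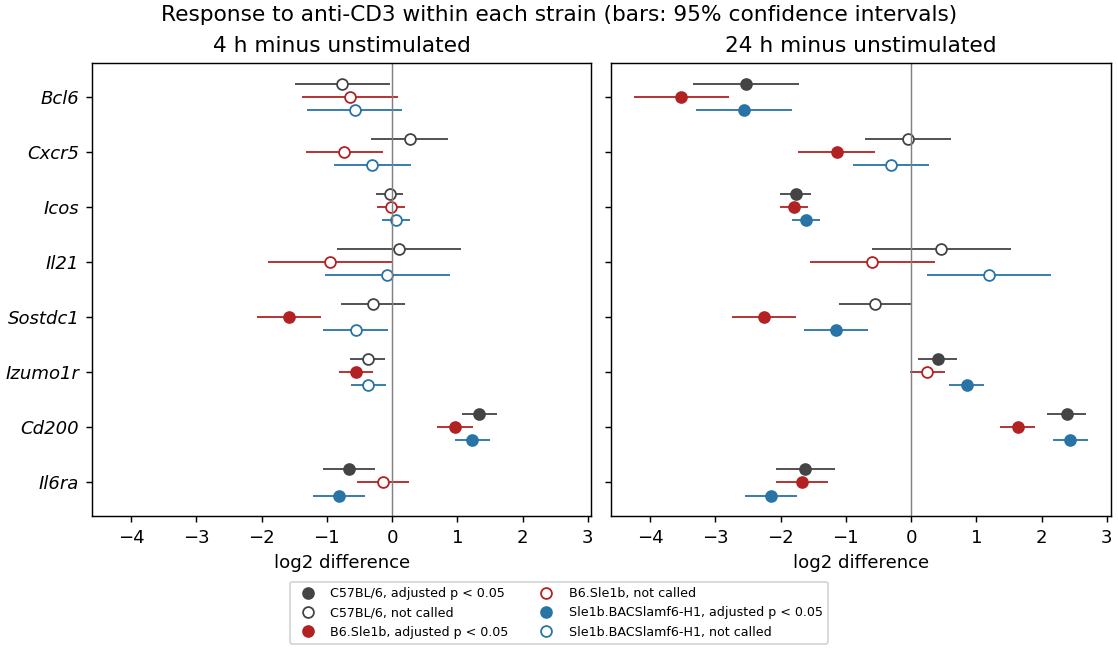
Log2 response to anti-CD3 (x axis, with its 95% interval) of each gene after 4 h and 24 h, minus unstimulated cells of the same strain; colours are strains and filled symbols passed the adjusted threshold. At 24 h Bcl6 lies between -3.52 and -2.53 and Cd200 between 1.63 and 2.44.

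Bcl6, the transcriptional repressor that defines the lineage, was lower at 24 h than in unstimulated cells on every array. Unstimulated cells read log2 8.19, 7.41 and 8.09 in C57BL/6, 8.65, 8.54 and 7.90 in B6.Sle1b, and 8.05, 8.18 and 7.89 in Sle1b.BACSlamf6-H1. After 4 h the arrays read 7.90, 6.99 and 6.52, then 8.11, 7.90 and 7.14, then 7.84, 7.12 and 7.44 in the same order of strains, and after 24 h 5.69 and 5.05, then 4.48, 5.54 and 4.51, then 5.58, 5.82 and 5.04. The 4 h arrays overlap the unstimulated ones in C57BL/6 and B6.Sle1b and lie below them in Sle1b.BACSlamf6-H1, and the 24 h arrays lie below all others. The fall at 24 h was 5.78-fold in C57BL/6 (log2 -2.53 ± 0.39, SE, adjusted p = 3.01e-05), 11.5-fold in B6.Sle1b (-3.52 ± 0.35, 6.1e-08) and 5.90-fold in Sle1b.BACSlamf6-H1 (-2.56 ± 0.35, 4.61e-06). At 4 h the differences of log2 -0.76, -0.64 and -0.57 were not called (adjusted p = 0.286 to 0.462). Strains did not differ beyond their spread: unstimulated B6.Sle1b was above C57BL/6 by 0.47 ± 0.35, and the 3 strains' means at 24 h, 5.37, 4.84 and 5.48, lay within overlapping arrays.

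The promoters of Bcl6 are shown because STAT3, through which the IL-6 receptor signals, is a factor known to act on Bcl6. Bcl6 and Il6ra both fell at 24 h, and whether either fall had a part in the other was not tested. Of the 8 genes, 5 had promoter entries in RefSeq's table (build GRCm38.p6), with 2 for Bcl6, on the minus strand of chromosome 16. Each line is the 250 bases before a transcript start, 5′ to 3′, with matches in capitals to a STAT motif (TTCNNNGAA) or to the NFAT core (GGAAA) searched on both strands; in the second Bcl6 promoter a match of each kind overlaps.
Bcl6 promoter 1, chr16:23988853-23989102: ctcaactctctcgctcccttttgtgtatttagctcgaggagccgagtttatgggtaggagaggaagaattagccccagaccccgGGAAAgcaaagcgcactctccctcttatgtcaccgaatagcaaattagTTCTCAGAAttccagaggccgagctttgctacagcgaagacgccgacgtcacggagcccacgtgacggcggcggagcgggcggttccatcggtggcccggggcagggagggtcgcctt
Bcl6 promoter 2, chr16:23981284-23981533: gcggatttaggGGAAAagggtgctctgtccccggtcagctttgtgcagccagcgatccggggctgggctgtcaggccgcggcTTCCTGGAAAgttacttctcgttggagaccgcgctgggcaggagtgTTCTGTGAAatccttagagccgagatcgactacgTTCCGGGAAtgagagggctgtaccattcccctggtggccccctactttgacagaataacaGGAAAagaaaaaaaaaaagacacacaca
Il21 promoter, chr3:37232637-37232886: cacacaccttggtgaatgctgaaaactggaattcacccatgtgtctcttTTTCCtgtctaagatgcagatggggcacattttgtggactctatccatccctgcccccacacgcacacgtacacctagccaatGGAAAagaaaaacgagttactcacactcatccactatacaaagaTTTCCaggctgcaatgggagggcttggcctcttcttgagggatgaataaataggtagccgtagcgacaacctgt
The second Bcl6 promoter, inside the gene, holds 3 STAT matches, at -168, -122 and -88 counted from the transcript start, and the first holds 1, at -118. Of 32851 promoters of this length, 7.02% hold a STAT match and 0.0274%, 9 promoters, hold at least 3. The second Bcl6 promoter also holds 3 NFAT core matches and the first 1, against 55.6% of all promoters with at least 1. The Il21 promoter, also on the minus strand, is set beside them for its 3 NFAT core matches, at -201, -118 and -74; 6.39% of promoters hold at least 3. Izumo1r had 1 NFAT core match and the promoters of Cd200 and Il6ra none of the motifs searched. The AP-1 motif TGANTCA, in 6.75% of promoters, was in none of the members' promoters. These are matches of letters, and no binding was measured.

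Cxcr5, the receptor for the follicular chemokine CXCL13, was called in 1 strain only. The unstimulated arrays gave log2 6.22, 5.64 and 5.58 in C57BL/6, 6.27, 6.41 and 5.87 in B6.Sle1b, and 5.56, 5.50 and 5.93 in Sle1b.BACSlamf6-H1, and the strains overlap. At 24 h the 3 B6.Sle1b arrays read 5.13, 5.05 and 4.96, below the C57BL/6 arrays at 6.03 and 5.51 and the Sle1b.BACSlamf6-H1 arrays at 5.35, 5.19 and 5.52. The fall from unstimulated cells was called in B6.Sle1b, at 2.20-fold (log2 -1.14 ± 0.28, SE, adjusted p = 0.00334). In C57BL/6 it was -0.04 (adjusted p = 0.963) and in Sle1b.BACSlamf6-H1 -0.31 (0.522). At 4 h the arrays read 6.43, 6.13 and 5.70 in C57BL/6, 5.66, 5.89 and 4.81 in B6.Sle1b, and 5.45, 4.73 and 5.92 in Sle1b.BACSlamf6-H1, with overlap between neighbouring strains. No strain difference at 4 h or 24 h was called (B6.Sle1b minus C57BL/6 at 24 h -0.73, unadjusted p = 0.0318).

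Icos, the costimulatory receptor engaged by ICOS ligand on B cells, had the smallest standard errors of the 8 genes. Its unstimulated levels were log2 10.30, 10.16 and 10.14 in C57BL/6, 10.19, 10.62 and 10.38 in B6.Sle1b, and 10.18, 10.21 and 10.18 in Sle1b.BACSlamf6-H1. The means at 4 h, 10.16, 10.38 and 10.25, lay within 0.06 of the unstimulated ones. At 24 h the arrays read 8.42 and 8.43, then 8.64, 8.67 and 8.49, then 8.64, 8.46 and 8.65, all below every earlier array. The fall was 3.41-fold in C57BL/6 (log2 -1.77 ± 0.12, SE, adjusted p = 2.05e-10), 3.49-fold in B6.Sle1b (-1.80 ± 0.10, 1.83e-11) and 3.04-fold in Sle1b.BACSlamf6-H1 (-1.60 ± 0.10, 8.54e-11). B6.Sle1b was above C57BL/6 by log2 0.19 ± 0.06 over the mean of the times, which was not called (adjusted p = 0.495).

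Il6ra, the ligand-binding chain of the IL-6 receptor, fell at 24 h in every strain. Unstimulated cells read log2 8.46, 7.91 and 8.47 in C57BL/6, 8.01, 8.19 and 7.62 in B6.Sle1b, and 8.70, 8.77 and 8.79 in Sle1b.BACSlamf6-H1. All 3 unstimulated Sle1b.BACSlamf6-H1 arrays lie above the other 6, but the difference from B6.Sle1b, log2 0.81 ± 0.19 (SE), was not called (adjusted p = 0.189). At 4 h the arrays read 7.70, 7.72 and 7.44, then 7.81, 7.96 and 7.63, then 8.32, 7.55 and 7.96 in the same order of strains. At 24 h the arrays read 6.70 and 6.62, then 5.99, 6.60 and 6.22, then 6.59, 6.77 and 6.44. The B6.Sle1b arrays lie below both of C57BL/6, though the difference of log2 -0.39 was not called (unadjusted p = 0.0848), and overlap those of Sle1b.BACSlamf6-H1. The fall was 3.07-fold in C57BL/6 (log2 -1.62 ± 0.22, adjusted p = 4.21e-06), 3.18-fold in B6.Sle1b (-1.67 ± 0.19, 5.02e-07) and 4.44-fold in Sle1b.BACSlamf6-H1 (-2.15 ± 0.19, 1.05e-08). At 4 h it was already lower in C57BL/6 (-0.66 ± 0.19, 0.0398) and Sle1b.BACSlamf6-H1 (-0.81 ± 0.19, 0.00765), and in B6.Sle1b it was -0.14 (0.908). The C57BL/6 call at 4 h was lost without any array of its 2 groups except unstimulated replicate 2, at adjusted p of 0.0698 to 0.185, and the Sle1b.BACSlamf6-H1 call was lost without its 4 h replicate 2, at -0.61 and 0.0692.

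Cd200, a membrane glycoprotein that engages an inhibitory receptor on other cells, rose stepwise with anti-CD3. Before stimulation the arrays read log2 5.96, 5.57 and 5.90 in C57BL/6, 6.46, 6.56 and 6.38 in B6.Sle1b, and 6.01, 5.93 and 5.68 in Sle1b.BACSlamf6-H1. The 3 B6.Sle1b arrays are the highest of the 9. The difference from C57BL/6 was log2 0.66 ± 0.13 (SE, 95% interval 0.38 to 0.93, adjusted p = 0.0465), and that of Sle1b.BACSlamf6-H1 from B6.Sle1b was -0.59 ± 0.13 (adjusted p = 0.111). The call against C57BL/6 was lost without any of the 6 arrays except C57BL/6 replicate 1, at log2 0.54 to 0.70 and adjusted p of 0.0733 to 0.335. After 4 h the arrays read 7.12, 7.08 and 7.25, then 7.55, 7.26 and 7.50, then 7.27, 6.97 and 7.08, and after 24 h 8.20 and 8.19, then 8.28, 8.15 and 7.87, then 8.39, 8.18 and 8.37. Times do not overlap, and at 24 h the strains do. The rise at 4 h was 2.53-fold in C57BL/6 (adjusted p = 3.24e-07), 1.95-fold in B6.Sle1b (3.65e-05) and 2.35-fold in Sle1b.BACSlamf6-H1 (1.12e-06). At 24 h it was 5.22-fold (log2 2.38 ± 0.15, 9.47e-11), 3.11-fold (1.63 ± 0.13, 2.27e-09) and 5.42-fold (2.44 ± 0.13, 6.09e-12).

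Izumo1r, known in T cells as folate receptor 4, which is found on regulatory and antigen-experienced CD4+ T cells, had its lowest group means at 4 h and its highest at 24 h. In unstimulated cells it read log2 7.18, 7.29 and 7.04 in C57BL/6, 7.53, 7.36 and 7.49 in B6.Sle1b, and 6.78, 6.77 and 6.85 in Sle1b.BACSlamf6-H1. The strains do not overlap, with Sle1b.BACSlamf6-H1 lowest and B6.Sle1b highest. Sle1b.BACSlamf6-H1 was below B6.Sle1b by log2 -0.66 ± 0.13 (SE, 95% interval -0.93 to -0.39, adjusted p = 0.0493) and below C57BL/6 by -0.37 (95% interval -0.64 to -0.11, adjusted p = 0.797). The call was lost without any of the 6 arrays except B6.Sle1b replicate 2, at log2 -0.69 to -0.62 and adjusted p of 0.137 to 0.262, and the call over the mean of the times without 13 of 18 arrays, at 0.0505 to 0.111. After 4 h the arrays read 6.75, 7.02 and 6.62, then 7.07, 6.92 and 6.73, then 6.30, 6.42 and 6.59. There Sle1b.BACSlamf6-H1 lay below both other strains on all arrays. The difference was log2 -0.47 from B6.Sle1b (95% interval -0.73 to -0.20, limma unadjusted p = 0.00142, adjusted p = 0.998). From C57BL/6 it was -0.36 (-0.63 to -0.09, unadjusted p = 0.0103, adjusted p = 0.56), and neither was called. After 24 h the arrays read 7.67 and 7.50, then 7.98, 7.63 and 7.51, then 7.65, 7.69 and 7.62, and the strains overlap. The rise from 4 h to 24 h was called in each strain, at 1.72-fold in C57BL/6 (adjusted p = 0.000293), 1.74-fold in B6.Sle1b (4.48e-05) and 2.32-fold in Sle1b.BACSlamf6-H1 (1.92e-07). Against unstimulated cells it was log2 0.41 ± 0.14 (0.0394), 0.25 ± 0.13 (0.163) and 0.85 ± 0.13 (1.4e-05). The C57BL/6 value lost its call without any array of its 2 groups except unstimulated replicate 2, at adjusted p of 0.0642 to 0.287, and in the fit with replicate numbers as a block (0.38, adjusted p = 0.0625). The 4 h difference from unstimulated cells was called in B6.Sle1b alone (-0.55 ± 0.13, 0.00915), beside -0.37 (0.0922) and -0.36 (0.0773) in the other strains, and lost its call without B6.Sle1b 4 h replicate 3 (-0.46, 0.0707).

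Il21, the cytokine through which Tfh cells act on germinal-centre B cells, was low. In unstimulated cells it read log2 4.88, 4.73 and 4.26 in C57BL/6, 5.64, 5.57 and 5.70 in B6.Sle1b, and 4.99, 5.03 and 4.56 in Sle1b.BACSlamf6-H1. All 3 B6.Sle1b arrays lie above the other 6, yet the difference from C57BL/6, 1.02 ± 0.46 (SE), was not called (unadjusted p = 0.0376, adjusted p = 1). At 4 h the arrays read 5.02, 4.47 and 4.70 in C57BL/6, 4.69, 5.10 and 4.28 in B6.Sle1b, and 4.74, 5.01 and 4.62 in Sle1b.BACSlamf6-H1, and the strains overlap. After 24 h Sle1b.BACSlamf6-H1 read 5.47, 4.96 and 7.74, B6.Sle1b 5.93, 4.59 and 4.61, and C57BL/6 5.20 and 4.97. A single Sle1b.BACSlamf6-H1 array, replicate 3, stands well above the rest. The difference of 24 h from 4 h in that strain, log2 1.27 ± 0.46 (adjusted p = 0.047), was 0.43 (adjusted p = 0.461) without it. This difference also missed the threshold without any of the 4 h arrays (0.0634 to 0.128) and with replicate numbers as a block (0.0541). It kept its call in only 5 of 12 alternatives, with limma adjusted p up to 0.392 in the others. The difference of 24 h from unstimulated cells was 1.20 ± 0.46 (adjusted p = 0.055), and 0.36 (adjusted p = 0.521) without the same array; 5 alternatives called it, at adjusted p down to 0.014.

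Sostdc1, a secreted antagonist of BMP signalling that also modulates Wnt signalling, showed the clearest strain pattern. Unstimulated cells read log2 4.33, 3.57 and 3.31 in C57BL/6, 5.72, 5.77 and 5.72 in B6.Sle1b, and 4.25, 4.45 and 3.38 in Sle1b.BACSlamf6-H1. The B6.Sle1b arrays are within 0.05 of each other and more than 1 unit above the other 6, which overlap. B6.Sle1b was above C57BL/6 by 2.00 ± 0.24 (SE, 95% interval 1.51 to 2.49, adjusted p = 0.000202), the 5th highest difference of 17097 genes. Sle1b.BACSlamf6-H1 was below B6.Sle1b by -1.71 ± 0.24 (95% interval -2.20 to -1.21, adjusted p = 0.0024), the 2nd lowest, and differed from C57BL/6 by 0.29 (95% interval -0.20 to 0.79). No single array left out changed either call, but both were lost when limma was fitted to just the groups compared (adjusted p = 0.723 and 0.626). The C57BL/6 and Sle1b.BACSlamf6-H1 means, 3.74 and 4.03, lay near mean backgrounds of 3.08 and 2.84, so the folds rest on low levels.

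With anti-CD3 the Sostdc1 level in B6.Sle1b fell towards that of the other strains. After 4 h the arrays read log2 3.59, 3.57 and 3.18 in C57BL/6, 4.02, 4.38 and 4.07 in B6.Sle1b, and 3.61, 3.58 and 3.23 in Sle1b.BACSlamf6-H1, and after 24 h 3.23 and 3.15, then 3.49, 3.65 and 3.31, then 2.71, 3.11 and 2.81. B6.Sle1b stays highest at both times on all its arrays. The fall in B6.Sle1b was 2.99-fold at 4 h (log2 -1.58 ± 0.24, SE, adjusted p = 0.000124) and 4.77-fold at 24 h (-2.26 ± 0.24, 1.35e-07). In C57BL/6 it was -0.29 and -0.55 (24 h adjusted p = 0.162). In the fit with replicate numbers as a block, the C57BL/6 value at 24 h was -0.67 and called (adjusted p = 0.0283). In Sle1b.BACSlamf6-H1 at 24 h only 1 of 3 arrays was above background, so the fall from a mean of 4.03 to 2.88 is given as at least 2.05-fold (adjusted p = 0.000545), background being the lower end. The strain differences that remained, log2 0.71 ± 0.24 at 4 h and 0.29 at 24 h for B6.Sle1b against C57BL/6, were not called (unadjusted p at 4 h = 0.00696).

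Whether the strains responded differently was tested as a difference of responses, 48 values in 6 comparisons over the 8 genes. Limma called 0 of them, 13 had an unadjusted p under 0.05 and the smallest adjusted p was 0.41. Of all genes, 0.00585% (1 gene) was called for Sle1b.BACSlamf6-H1 against B6.Sle1b at 24 h and none in the other 5 comparisons, while 315 to 903 genes in each comparison had an unadjusted p under 0.05. The smallest p among the members was for Sostdc1: its 24 h response in B6.Sle1b was lower than in C57BL/6 by log2 -1.71 ± 0.36 (SE, unadjusted p = 9.72e-05). For Cd200 the 24 h response of B6.Sle1b differed by -0.75 ± 0.20 from C57BL/6 (adjusted p = 0.64), and that of Sle1b.BACSlamf6-H1 by 0.80 ± 0.18 from B6.Sle1b (0.433). The calls made in 1 strain and not another, such as Cxcr5 in B6.Sle1b, are therefore not shown to differ between strains.

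Genes with several probe sets were compared over all of them, a check chosen after the data were seen, with p-values adjusted over 45141 probe sets. The second Sostdc1 probe set gave log2 2.69 ± 0.43 (SE, adjusted p = 0.00837) for unstimulated B6.Sle1b against C57BL/6, where the first gave 2.00, and -2.28 ± 0.43 (0.0626) for Sle1b.BACSlamf6-H1 against B6.Sle1b. It was above background on 16 of 26 arrays. Both other Icos probe sets fell at 24 h in each strain, with log2 differences between -2.04 and -1.51. The second Bcl6 probe set fell by less than the first, at -1.34, -1.54 and -1.26 in the 3 strains (adjusted p = 4.49e-05 to 0.000843). The second Il6ra probe set, much dimmer, was called at 24 h in Sle1b.BACSlamf6-H1 only (-0.61, 0.0247) beside -0.54 (0.0979) and -0.31 (0.294). The second Il21 probe set was above background on 2 of 26 arrays. Over all 6 other probe sets, the sign matched the brightest in 5 for unstimulated B6.Sle1b against C57BL/6. It matched in 6 for unstimulated Sle1b.BACSlamf6-H1 against B6.Sle1b, but in 2 at 4 h and 2 at 24 h. For unstimulated Sle1b.BACSlamf6-H1 against C57BL/6 it matched in 2.

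**Figure D4:**
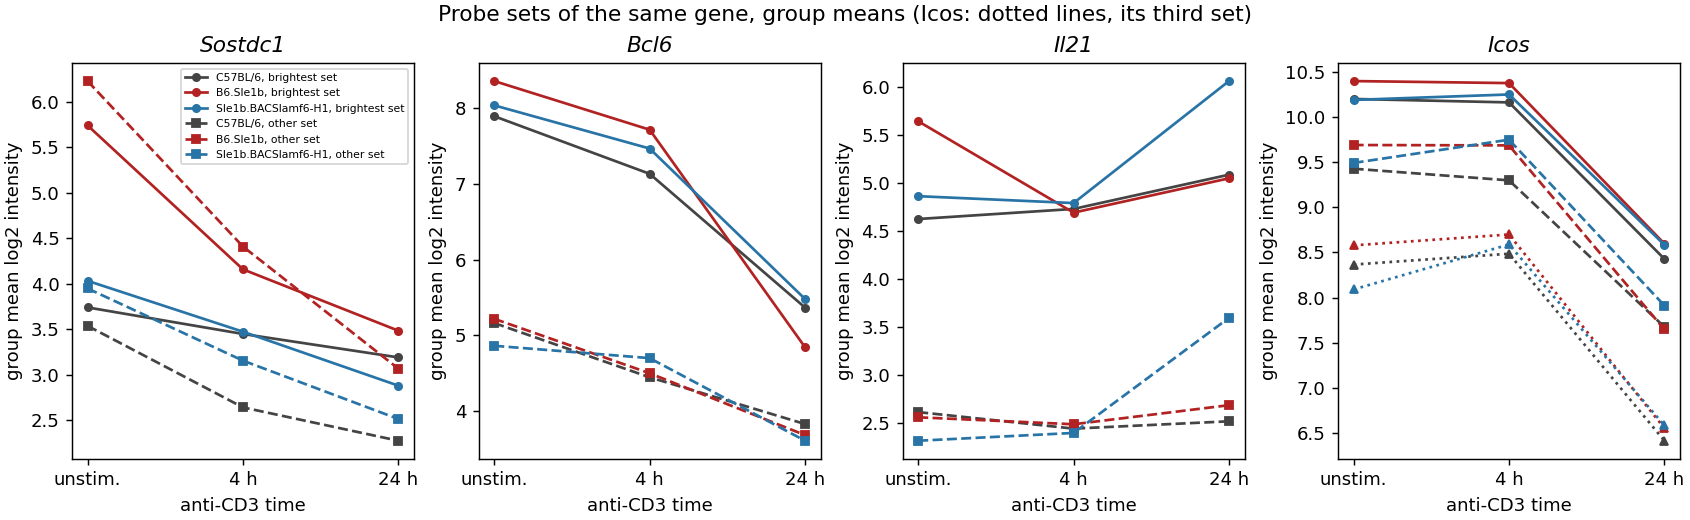
Mean log2 intensity (y axis) of every probe set of Sostdc1, Bcl6, Il21 and Icos in the 9 groups (x axis: unstimulated, 4 h, 24 h), coloured by strain; solid lines are the brightest probe set, dashed the second and dotted the third of Icos. Both Sostdc1 probe sets are highest in unstimulated B6.Sle1b, at 5.74 and 6.22, and all 3 Icos probe sets are lowest at 24 h.

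Other genes of the program were counted over lists set for this tissue, 5 lists in all. Between strains, 0 of 9 Tfh regulators, 0 of 6 IL-6, IL-21 and IL-27 receptor genes, 0 of 9 antagonists and 0 of 3 T zone homing genes were called by limma for B6.Sle1b against C57BL/6 or Sle1b.BACSlamf6-H1 against B6.Sle1b, in comparisons that called 0 to 0.333% of all genes and gave 613 to 1390 genes at an unadjusted p under 0.05. Maf, an activator of Il21, read 0.92 ± 0.33 (adjusted p = 0.881) in unstimulated B6.Sle1b against C57BL/6, and Pdcd1, the inhibitory receptor PD-1, 0.55 ± 0.29 (adjusted p = 1). Of 11 surface and signalling partners, the SLAM receptors Slamf6 and Cd84 were higher in B6.Sle1b, Cd84 over the mean of the times (0.53 ± 0.11, adjusted p = 0.0458); both lie in the Sle1b interval.

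With anti-CD3 members of these lists were called in both directions. Among 9 Tfh regulators, Irf4 and Batf, factors induced by the T cell receptor, rose in all strains at both times (Irf4 at 4 h log2 2.10, 1.79 and 2.04 in C57BL/6, B6.Sle1b and Sle1b.BACSlamf6-H1), while Lef1, which acts before Bcl6, fell at 24 h (-1.44, -1.82 and -1.81). At 24 h 2 of 9 rose in each strain, and 1, 3 and 3 fell, so that 3, 5 and 5 of 9 were called beside 24.3%, 28.2% and 29.1% of all genes. Of 6 receptor-pathway genes, Socs1, the feedback inhibitor of cytokine receptors, rose at 24 h (2.82, 2.34 and 3.01), and Il6st, the signalling chain that pairs with Il6ra, fell (-1.71, -1.85 and -1.59), as did the kinase gene Jak1 (-1.23, -1.20 and -1.47). Of 11 partners, Il4 rose at 4 h (3.92, 3.21 and 3.80), and Sh2d1a, which encodes SAP, fell at 24 h (-1.59, -1.98 and -1.67). Of 9 antagonists, Il2ra, the IL-2 receptor alpha chain whose signal opposes Bcl6, rose at 24 h (3.57, 3.65 and 3.60), while Klf2 fell (-1.76, -2.05 and -2.60). Of 3 T zone homing genes, S1pr1, which directs cells out of lymphoid tissue, fell at 24 h (-2.56, -2.74 and -2.93), and Gpr183 rose at 4 h (1.30 in C57BL/6 and 1.54 in B6.Sle1b, with Sle1b.BACSlamf6-H1 between them). Each value in this paragraph passed the adjusted threshold.

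Marker genes of other cells were read beside these results, since a sorted population can hold some. In unstimulated cells 12 B cell genes summed to intensities of 1902 to 2715 in C57BL/6, 1442 to 1474 in B6.Sle1b and 1110 to 1845 in Sle1b.BACSlamf6-H1, and Pax5 and Cr2 were at background in every group. Over the mean of the times 4 of the 12 were lower in B6.Sle1b than in C57BL/6, beside 0.333% of all genes called, with Cd79b at log2 -0.89 ± 0.14 (SE, adjusted p = 0.00353). Marker lists went both ways in that comparison, with medians of log2 -0.44 for B cell, 0.45 for plasma cell and 0.998 for neutrophil genes. No plasma cell or neutrophil gene was called in it. Sostdc1 was higher in B6.Sle1b there, and whether any of these cells had a part in that was not tested. The 7 regulatory T cell genes, a cell type that also expresses Izumo1r and Icos, summed to 2351 to 2916, 2707 to 3220 and 2524 to 2588 in the 3 strains unstimulated, and to 1591 to 2107 over the 24 h arrays of the 9 groups; Ctla4 among them was higher in B6.Sle1b than C57BL/6 over the mean (0.39 ± 0.09, adjusted p = 0.0493). Neutrophil genes, 5 measured, summed to 40.4 to 145, 62.1 to 541 and 118 to 766, with Mmp8 at background in each; 7 monocyte and macrophage genes to 72.1 to 84.9, 88.8 to 106 and 84.4 to 108, with Itgam at background; and Lyz2 was higher in B6.Sle1b over the mean (1.28 ± 0.22, 0.00617). The 3 plasma cell genes summed to 3769 to 6175, 5785 to 7767 and 6176 to 8101. The 2 erythroid genes measured, Hba-a1 and Alas2, summed to 1362 to 3797, 3344 to 3749 and 818 to 2144, with Alas2 at background in C57BL/6 and Sle1b.BACSlamf6-H1. Sle1b.BACSlamf6-H1 thus lay below B6.Sle1b on every unstimulated array, with median differences of log2 -0.93 unstimulated, -0.78 at 4 h and -1.12 at 24 h, the lowest median of the marker lists at each time. The erythroid sums are in effect Hba-a1 alone. Its unstimulated means were log2 11.80 in B6.Sle1b and 10.58 in Sle1b.BACSlamf6-H1, where Alas2 read 3.15 and 2.51. For Sle1b.BACSlamf6-H1 against B6.Sle1b, limma called 0 genes of these lists, in a comparison with 1390 of all genes at an unadjusted p under 0.05 in unstimulated cells. The part of these cells in the members' differences was not tested.

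Array brightness moved with several members. The relation was computed for the 8 genes only, so the share of all genes that follow brightness is not known. Within groups, an array's deviation in its 75th percentile was set against that in the gene's log2 level, over 26 arrays. The permutation p-values treat the 26 deviations as independent, although group means had been taken out of them, so they are too small. These p-values do not decide how many of the 8 genes follow brightness. For Icos, with the weakest r of the 5 genes given next, a relation is not shown. For Il6ra Pearson's r was 0.767 and Spearman's rho 0.715 (permutation p = 2e-05 and 7e-05, adjusted over 8 relations 0.00016 and 0.00032). The values were 0.675 and 0.712 for Bcl6 (adjusted 0.00064 and 0.00032) and 0.640 and 0.575 for Cd200 (0.00101 and 0.00586). For Cxcr5 they were 0.601 and 0.569 (0.0026 and 0.00586), and for Icos 0.439 and 0.468 (0.0395 and 0.0264). Without the 2 arrays farthest from the median brightness r was 0.674, 0.615, 0.563, 0.592 and 0.483. For Sostdc1, Il21 and Izumo1r r was 0.277, 0.145 and -0.061 (permutation adjusted p = 0.227 to 0.768). With brightness as a covariate the unstimulated difference of Sle1b.BACSlamf6-H1 from B6.Sle1b was called for Cd200 (log2 -0.64, adjusted p = 0.00409) and Il6ra (0.72, 0.00935), where the main fit gave -0.59 and 0.81 with no call.

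Across the 26 arrays the members fell into patterns that follow time, given as a description since the arrays share strain and time. Bcl6 correlated with Il6ra at r of 0.93 and with Icos at 0.92, and Cd200 ran opposite, at -0.88 with Il6ra and -0.80 with Bcl6. The genes most like each member by Pearson's r, among 6753 genes (6754 for Sostdc1) with a mean log2 of at least 5, were Nrip1 (0.98) and Rrad (0.97) for Bcl6, Zeb1 and Rundc3b (both 0.99) for Icos, Fam8a1 (0.98) and Add3 (0.97) for Il6ra, Cstf3 (0.98) and Sinhcaf (0.97) for Cd200, and Slbp (0.94) and Mphosph6 (0.93) for Izumo1r. For Sostdc1 they were Stx11 (0.82), Il1r2 (0.80) and Il10 (0.79), for Cxcr5 Emc3 (0.81) and Rabgef1 (0.79), and for Il21 Xpo4 (0.67) and Fut8 (0.66), the loosest matches of the 8.

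The 2 arrays labelled technical replicates of C57BL/6 at 24 h gave means close to the biological pair: for Bcl6 log2 5.79 beside 5.37, for Icos 8.44 beside 8.43, for Cd200 8.29 beside 8.19 and for Sostdc1 2.91 beside 3.19. Which extract they repeat is not given in the labels. With the technical arrays included as if independent, the fall of Sostdc1 in C57BL/6 at 24 h was called (log2 -0.69, limma adjusted p = 0.018), which it was not without them. Technical replicates repeat material, so that p-value counts more independent arrays than there are. Their Sostdc1 mean of 2.91 lay beside a mean background of 2.89, with 1 of 2 arrays above background.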

How the data were processed

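RNA of splenic CD4+ T cells was measured on Affymetrix HT MG-430 PM arrays. The values are linear intensity after RMA, the method named in the submitters' processing notes, in the authors' deposited table. RMA had already corrected background and normalized between arrays, so a shift shared by most genes may be lost in part. Arrays still differed in brightness afterwards, with the 75th percentile of intensity at 34.2 to 53.3, so not all shared shifts were removed. Log2 was taken with no pseudocount. Of 45141 probe sets, 28898 had 1 symbol in the platform annotation, 551 several and 15692 none; 28689 of the single-symbol probe sets matched RefSeq, and the brightest probe set per gene left 17097 genes. With limma 3.58.1 in R 4.3.3, 9 group means were fitted to 26 arrays, with 27 contrasts, empirical Bayes and Benjamini-Hochberg adjustment over all genes. Python 3.11.15 was used elsewhere, and the fit was tested on simulated data. The number of arrays limits the precision. The 8 genes and all lists were chosen with earlier results of these data known. Beyond the 8, up to 3 called genes per list and comparison with the smallest adjusted p, and the 3 genes most like each member, could be named; Maf and Pdcd1 were chosen after their values were seen. Same-numbered arrays had r over 0.1 in 45 of 100 pairs of groups and numbers (-0.815 to 0.816), so replicate numbers were not a block in the main fit; among the groups compared, every such pair passed 0.1 for the 3 B6.Sle1b times (0.144 to 0.734) and for B6.Sle1b with C57BL/6 at 4 h (0.146 to 0.71), a hint from the data and not from the labels. 12 alternatives and each array left out in turn were tried.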

Additional observations from a re-analysis of the deposited data

How the results depend on the processing

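Of 216 member values in 27 contrasts, 48 were called; 36 of these were called in every fit that held the gene and with every array left out (31 under all 12 alternatives and 5 Sostdc1 values under 11, since the filter on mean log2 drops that gene), 12 were lost somewhere, and 30 of the 168 others were called somewhere. No called value changed sign. The unstimulated Sostdc1 calls were lost only when the fit held just the groups compared (adjusted p = 0.723 and 0.626). Counts of members called moved as follows. Those with array weights rest on an estimate that stopped short of convergence. All genes called were not counted for that fit, so its member counts have no share beside them. For unstimulated B6.Sle1b against C57BL/6, 2 in the main fit became 1 after a second quantile normalization, with arrays centred on their medians, with genes of mean log2 of at least 5, without the 3 dim arrays and with a trend, 0 with only the groups compared and 6 with array weights. Over the mean of times, 1 became 0 with that filter, which drops Sostdc1, and 2 with brightness as a covariate or array weights. For unstimulated Sle1b.BACSlamf6-H1 against B6.Sle1b, 2 became 1 with centring, without the dim arrays and with a trend, 0 with the filter and with only the groups compared, 4 with brightness and 5 with array weights; over the mean, 2 became 1 after a second quantile normalization, centring, the filter, a trend and only the groups compared, and 4 with brightness. At 4 h, 2 in C57BL/6 became 1 with centring, the mean of all probe sets and only the groups compared, 3 in B6.Sle1b became 5 with array weights, and 2 in Sle1b.BACSlamf6-H1 became 1. Differences of response, 0 in the main fit, were 3 and 2 at 4 h and 24 h for B6.Sle1b against C57BL/6 and 4 at 24 h for Sle1b.BACSlamf6-H1 against B6.Sle1b with array weights, whose estimate stopped short of convergence. The cause was not tested. In unstimulated cells, leaving out 1 array gave 1 to 2 members for B6.Sle1b against C57BL/6 and for Sle1b.BACSlamf6-H1 against B6.Sle1b. It also gave 1 to 2 for Sle1b.BACSlamf6-H1 against B6.Sle1b over the mean and for C57BL/6 at 4 h, and 1 to 3 for Sle1b.BACSlamf6-H1 at 4 h. With brightness as a covariate, all genes called rose from 21 to 55 for unstimulated B6.Sle1b against C57BL/6 and from 14 to 96 for unstimulated Sle1b.BACSlamf6-H1 against B6.Sle1b. Over the mean they rose from 57 to 118 and from 14 to 83 in the same order.

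With the replicate number as a block, 2 member calls were lost (Izumo1r in C57BL/6, 24 h against unstimulated, and Il21 in Sle1b.BACSlamf6-H1, 24 h against 4 h) and 2 gained (Sostdc1 in C57BL/6, 24 h against unstimulated, and in Sle1b.BACSlamf6-H1, 24 h against 4 h, log2 -0.59, adjusted p = 0.0275); it changed no other member call. A block only in the groups whose same-numbered arrays all had r over 0.1 (the 3 B6.Sle1b times, and B6.Sle1b with C57BL/6 at 4 h), chosen after seeing the data, changed no member call, with all genes called at 1108 beside 973, 5212 beside 4819 and 4451 beside 4142 for B6.Sle1b 4 h, 24 h and 24 h against 4 h, and 9 beside 7 for the strains at 4 h.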
